A study of Mus musculus with 9 samples.

Results

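Escape e2 is a line of mouse pancreatic tumor cells derived from a parental tumor line, and the series describes such derived lines as resistant to immunotherapy. Its 3 RNA-seq libraries were compared with the 3 libraries of the parental cells, 6 of the 9 libraries of the series, and the other derived line, escape e1, with 3 libraries, enters only where the text says so. All groups were on a C57BL/6 background, were grown in DMEM with serum and received no treatment before RNA extraction, so the immunotherapy that the derived line escaped was not present when the RNA was taken. The labels name no engineered allele and do not say how many escape lines were derived beside these, whether e2 is a single clone, or whether the 3 libraries of each line were grown as separate cultures. The p-values therefore measure only the spread between these libraries. Levels are in TPM, the authors' deposited unit, a transcript's share of the library corrected for gene length, so that values add up to the same sum in each library. TPM keeps no record of how many reads were counted, so library depths are unknown and no detection limit can be given. Of 24493 genes in the deposited table, 12540 reached 1 TPM in at least 3 of the 6 libraries and were tested.

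Pancreatic ductal tumors are carcinomas, and their cells normally keep features of duct epithelium: keratin filaments, E-cadherin and claudin junctions, and a polarised apical surface. Carcinoma cells can lose these features and take on a mesenchymal program, with matrix, fibroblast-like surface proteins and transcription factors such as the Snail, Zeb and Twist families. Tumor cells are seen by cytotoxic T cells through MHC class I molecules, whose genes, together with antiviral genes, are switched on by interferons through the JAK kinases and STAT and IRF factors.

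Escape e2 differed from the parental cells across most of the transcriptome. In limma on log2(TPM + 1), 5474 genes were higher in e2 (43.7% of those tested) and 4456 were lower (35.5%) at a Benjamini-Hochberg adjusted p under 0.05, together 79.2%. The groups of 3 libraries did not overlap for 10260 genes, 81.8% of those tested. Most of these differences were small: 1748 genes rose and 1268 fell by at least 1 on the log2 scale, and 284 rose and 252 fell by at least 3. The median log2 difference over all tested genes was 0.07. Because TPM adds up to the same sum in each library, this median cannot show whether levels shifted as a whole. Pearson correlations of log2 levels over genes ran from 0.991 to 0.995 within the groups and from 0.833 to 0.835 between them. Among the parental libraries, numbers 2 and 3 correlated at 0.995 and library 1 correlated with them at 0.992 and 0.991. Library 1 lies apart for a set of genes named below, and without it 10448 genes were called. Every count of list members below is read against the 43.7% and 35.5% of all tested genes. A gene that reached the filter in e2 alone, 765 in all, or in the parental cells alone, 547 in all, had to differ. Where 3 or more members of a list were of this kind in a direction, their number is given with the list, and in the other lists described there were at most 2 in either direction. Fold changes are on the log2(TPM + 1) scale with their standard error (SE, n = 3 libraries in each group), which understates the change of genes near 0, and adjusted p-values are from limma over all 12540 genes.

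**Figure D1:**
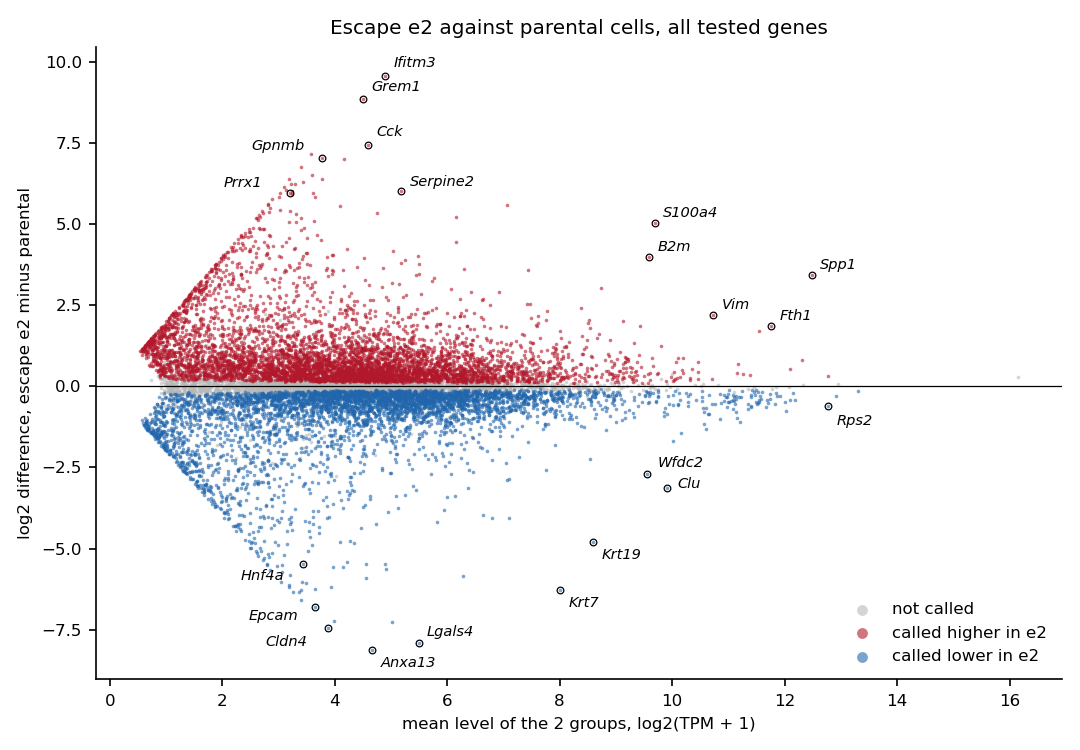
Each point is a tested gene, with the mean log2(TPM + 1) of the 2 groups on the x axis and the log2 difference, escape e2 minus parental, on the y axis; red and blue points are the 5474 and 4456 genes called higher and lower. The interferon-induced gene Ifitm3 stands highest at 9.57 and the annexin gene Anxa13 lowest at -8.13, and Spp1 combines a rise of 3.43 with a level above that of nearly all other genes.

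Some of the change lies in abundant transcripts. The mean differences, summed over genes that gained, came to 18.5% of all TPM, and the 10 genes with the largest gains took 28.3% of that sum. Among these 10, Mir6236, a small RNA gene with 3.92 to 9.48% of the TPM in the 6 libraries, gained 10765 of their 52245 TPM. Its difference did not pass (adjusted p = 0.52) but is part of both shares, and the other 9 rose. The largest gain was that of Spp1 on chromosome 5 (chr5:104435111-104441053), which encodes osteopontin, a secreted phosphoprotein that binds integrins and CD44. Spp1 had 2278, 1521 and 1468 TPM in the parental libraries and 18834, 18678 and 18234 TPM in the e2 libraries, a 10.6-fold higher mean and a log2 difference of 3.43 ± 0.18 (adjusted p = 1.7e-05). The lowest e2 library was far above the highest parental one, parental library 1. Both ferritin genes rose: Fth1, the heavy chain of the iron store, from 1819, 1859 and 1787 to 6570.2, 6539.5 and 6649.6 TPM, and Ftl1, the light chain, from 3666, 3978 and 3829 to 6778, 6458 and 6799 TPM. S100a4, a calcium-binding protein of motile and mesenchymal cells, rose from 136, 147 and 149.8 to 4788, 4726 and 4584 TPM, and Lgals1, the carbohydrate-binding protein galectin-1, from 1668, 1672 and 1628 to 5396, 5474 and 5173 TPM. In each of these genes the e2 libraries lay above every parental library and close to each other. The remaining gains of this kind were B2m and Vim, given with their groups, and 2 abundant housekeeping products, Tpt1, the tumor protein TCTP, which rose by 0.54 on the log2 scale, and Ppia, cyclophilin A, by 0.31.

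The largest losses in summed TPM were of another kind. They held 5 genes of ribosomal proteins: Rps2 and Rps18 on chromosome 17, Rpl35a on chromosome 16, Rplp1 on chromosome 9 and Fau on chromosome 19 (-0.61, -0.75, -1.09, -0.30 and -0.97). The others were the keratins Krt7 and Krt19, the secreted chaperone clusterin (Clu), Wfdc2, a secreted protease-inhibitor-like protein of epithelia, and Plac8. Clu fell from 2946, 2796 and 2751 to 320.01, 324 and 323 TPM (-3.13 ± 0.038, adjusted p = 1.5e-10). Wfdc2 fell from 1974, 1924 and 1820.5 to 302, 287 and 293 TPM and Plac8 from 2103, 2689 and 2570.2 to 987, 985 and 944 TPM.

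Promoter sequences of genes that carry the 2 leading themes are shown because 2 short motifs in them are spread unevenly over the changed genes. The windows run from 250 bases before to 50 bases after an annotated transcript start in RefSeq (build GRCm38.p6, the same coordinates as mm10), and 9672 of the 12540 tested genes had at least 1 window. The first motif is the core of the interferon-stimulated response element, GAAANNGAA, which factors of the IRF family bind. It is shown in capitals, on either strand, in Ifitm3 (chr7:141010695-141010994, minus strand, 2 matches), Isg15 (chr4:156200769-156201068, minus strand, 3 matches that overlap in a single run) and B2m (chr2:122147437-122147736, plus strand, 1 match).
Ifitm3: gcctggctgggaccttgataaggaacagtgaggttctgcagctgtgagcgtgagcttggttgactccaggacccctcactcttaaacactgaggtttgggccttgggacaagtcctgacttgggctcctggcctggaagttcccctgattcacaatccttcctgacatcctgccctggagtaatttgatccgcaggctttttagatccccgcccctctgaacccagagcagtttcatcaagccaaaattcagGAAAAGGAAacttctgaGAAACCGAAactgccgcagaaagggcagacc
Isg15: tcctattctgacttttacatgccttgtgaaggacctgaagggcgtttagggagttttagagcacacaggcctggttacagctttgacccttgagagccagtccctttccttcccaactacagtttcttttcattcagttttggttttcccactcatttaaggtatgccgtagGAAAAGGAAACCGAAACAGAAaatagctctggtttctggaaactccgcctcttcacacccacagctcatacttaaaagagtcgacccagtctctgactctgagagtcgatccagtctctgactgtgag
B2m: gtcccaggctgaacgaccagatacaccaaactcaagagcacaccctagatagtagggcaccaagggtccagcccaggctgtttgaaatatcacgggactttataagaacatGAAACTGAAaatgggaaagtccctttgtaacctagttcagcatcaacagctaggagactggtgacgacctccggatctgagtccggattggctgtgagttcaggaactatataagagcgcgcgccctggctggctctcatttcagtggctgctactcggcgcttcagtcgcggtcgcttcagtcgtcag

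The second motif is the E-box CACCTG, the letters that Snail and Zeb repressors bind. It is in capitals, on either strand, in Epcam (chr17:87635729-87636028, plus strand, 2 matches), Cldn4 (chr5:134946885-134947184, minus strand, 2 matches), Cldn7 (chr11:69965171-69965470, plus strand, 2 matches) and Krt7 (chr15:101412153-101412452, plus strand, 1 match).
Epcam: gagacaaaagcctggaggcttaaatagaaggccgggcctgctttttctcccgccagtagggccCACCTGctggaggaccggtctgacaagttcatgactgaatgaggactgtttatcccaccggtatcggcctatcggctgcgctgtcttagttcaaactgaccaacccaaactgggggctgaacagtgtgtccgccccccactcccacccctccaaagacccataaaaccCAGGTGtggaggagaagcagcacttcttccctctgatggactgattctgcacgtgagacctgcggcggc
Cldn4: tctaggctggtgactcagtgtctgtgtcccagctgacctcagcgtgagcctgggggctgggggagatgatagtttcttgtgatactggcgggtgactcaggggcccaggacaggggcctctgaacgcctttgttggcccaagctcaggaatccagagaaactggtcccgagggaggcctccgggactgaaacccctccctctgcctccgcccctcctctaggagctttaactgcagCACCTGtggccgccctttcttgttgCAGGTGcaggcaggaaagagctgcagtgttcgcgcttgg
Cldn7: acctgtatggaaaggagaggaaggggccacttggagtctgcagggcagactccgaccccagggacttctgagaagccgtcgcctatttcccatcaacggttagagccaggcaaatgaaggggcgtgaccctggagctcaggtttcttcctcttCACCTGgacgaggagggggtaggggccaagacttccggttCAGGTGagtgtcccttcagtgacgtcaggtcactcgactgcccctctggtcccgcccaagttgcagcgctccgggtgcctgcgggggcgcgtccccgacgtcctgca
Krt7: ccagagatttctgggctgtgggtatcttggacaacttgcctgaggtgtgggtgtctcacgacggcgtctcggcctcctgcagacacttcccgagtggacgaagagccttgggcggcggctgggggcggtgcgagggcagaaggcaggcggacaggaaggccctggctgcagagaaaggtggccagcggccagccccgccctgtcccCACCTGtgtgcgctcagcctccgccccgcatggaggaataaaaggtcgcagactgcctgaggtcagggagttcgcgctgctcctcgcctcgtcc

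The interferon response core was present in the windows of 8.40% of tested genes (812) and of 9.76% of all 27025 genes with a window. Among 50 interferon-stimulated genes called higher in e2, 38 had a window and 26 of these (68.4%) held the core. In the MHC class I list, 5 of 18 higher genes (27.8%) held it, B2m among them. A gamma-activated site, TTCNNNGAA, was present in 8.16% of tested genes and in 10 of the 38 interferon-stimulated genes (26.3%). It was in 2 of the 18 class I genes (11.1%), in 19 of 211 genes higher by at least 3 (9.0%) and in 18 of 176 genes lower by at least 3 (10.2%). Genes with more annotated starts have more windows and so more chances of a match, and counted by window the core was in 6.94% of the windows of tested genes and in 26 of 40 windows (65.0%) of the higher interferon-stimulated genes.

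The E-box was present in 20.7% of tested genes (1998) and in 22.6% of all genes with a window. Of 57 epithelial adhesion and keratin genes called lower in e2, 33 had a window and 23 of these (69.7%) held it. Counted by window, it was in 17.9% of the windows of tested genes and in 27 of 45 windows of these epithelial genes. The E-box was also more frequent among all strongly lower genes, a set that includes members of the epithelial list. Of 176 genes lower by at least 3, 84 (47.7%) held it. Of 211 genes higher by at least 3, 43 (20.4%) held it, which is close to all tested genes. The interferon core showed the opposite order, with 31 of 211 strongly higher genes (14.7%) and 10 of 176 strongly lower genes (5.68%). These 31 include members of the interferon-stimulated and class I lists already counted, such as Ifitm3, Isg15 and B2m. Of genes with an E-box, 16.5% were lower by at least 1, and of genes without it 7.65%. A match is a description of these letters and does not show that a factor binds there, and no test was made of these shares, because the lists were chosen with their direction known.

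**Figure D2:**
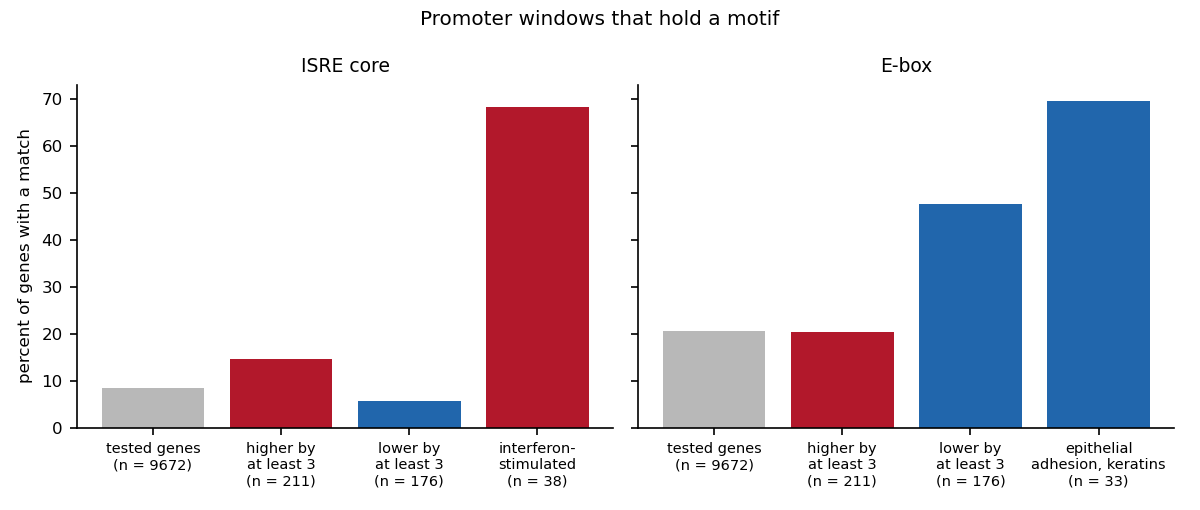
Bars give the percent of genes whose promoter window holds the interferon response core (left) or the E-box (right) among tested genes, genes higher or lower by at least 3 on the log2 scale, and the higher interferon-stimulated or lower epithelial genes; n is the number of genes with a window. The interferon-stimulated bar reaches 68.4% against 8.40% of tested genes, and the epithelial bar 69.7% against 20.7%.

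Genes of epithelial architecture were lower at each of its layers. Of 67 genes of epithelial adhesion, keratins and the apical surface, 59 were tested, 57 fell and 2 rose, with a median of -3.18, and 23 had reached the filter in parental cells alone. Their summed level was 13038 to 14263 TPM in the parental libraries and 3105 to 3218 TPM in the e2 libraries. In bulk RNA, fewer cells that carry a transcript and less of it per cell cannot be told apart, here or in any result that follows.

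All 32 tested junction genes fell, with a median of -3.03, and 11 of them had reached the filter in parental cells alone. Epcam, an epithelial adhesion protein, had 171, 114 and 115 TPM in the parental libraries and 0.131, 0.155 and 0.269 TPM in the e2 libraries (-6.80 ± 0.15, adjusted p = 8.4e-09). The tight junction claudin Cldn4 fell from 262, 166 and 156 to 0.113, 0.0448 and 0.133 TPM, and Cldn7 from 202, 193 and 189 to 0.366, 0.273 and 0.257 TPM. For these 3 genes the e2 libraries were all below 1 TPM. Cdh1, E-cadherin, fell from 232, 225 and 223 to 21.8, 20.8 and 20.2 TPM, a mean 10.8-fold lower (-3.37 ± 0.046). The least changed members were the cytoplasmic catenins that link cadherins to actin: Ctnna1 at -0.26, from a mean of 273 to 226 TPM, Jup, plakoglobin, at -0.53, and Ctnnb1, which also acts in Wnt signalling, at -0.60, from 825 to 544 TPM. Desmosomal genes fell by unequal amounts, Dsg2, a desmosomal cadherin, at -4.34, the plaque protein gene Dsp, desmoplakin, at -3.78, the plakophilin genes Pkp1 and Pkp3 at -1.47 and -1.73, and Ppl, periplakin, at -0.89, while Jup also belongs to the desmosomal plaque.

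The 9 tested keratins all fell, but unequally. Krt7 and Krt19, the pair that marks duct cells, fell most in amount: Krt7 from 2081, 2392 and 2318 to 29.9, 26.3 and 28.0 TPM (-6.28 ± 0.066, adjusted p = 7.1e-11) and Krt19 from 1684, 2255 and 2237 to 75.9, 68.1 and 72.8 TPM (-4.80 ± 0.11). Krt8 and Krt18, the partners that form the basic filament of simple epithelia, remained abundant. Krt18 went from 2174, 2346 and 2277 to 1026, 988 and 1021 TPM and Krt8 from a mean of 1873 to 576 TPM. Muc1, a membrane mucin of the apical surface, fell from a mean of 211 to 3.28 TPM, and the membrane serine protease St14, matriptase, from 45.5 to 0.0359 TPM. The 2 members of the list that rose encode the integrin pair α6β4, a laminin receptor of hemidesmosomes: Itga6 rose by 0.96 and Itgb4 by 0.61.

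Regulators of the epithelial state fell as well. Of 14 tested members, 13 fell and 1 rose (median -3.27), and 8 had reached the filter in parental cells alone. Esrp1 and Esrp2, the splicing factors of epithelial exon choice, were among them: Esrp1 went from 37.1, 29.0 and 28.1 TPM to 0, 0.0193 and 0.0205 TPM. Grhl2 and Ovol2, transcription factors that maintain epithelial junction genes, stood at means of 9.22 and 5.08 TPM in parental cells and at 0.105 and 0.0634 TPM in e2. The exception was Klf4, a zinc finger factor of differentiating epithelia, which rose from 29.1, 34.0 and 33.5 to 56.0, 56.3 and 57.3 TPM (0.80 ± 0.063, adjusted p = 5.3e-06), with no overlap of the libraries.

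Endodermal lineage factors split into those that nearly disappeared and those that stayed. Of 23 tested genes of pancreas and gut lineage, 18 fell, 4 rose and 1 passed in neither direction (median -1.99), with 8 that had reached the filter in parental cells alone. Hnf4a, a nuclear receptor that maintains gut and liver epithelium, fell from 61.9, 76.4 and 74.7 to 0.641, 0.606 and 0.618 TPM (-5.47 ± 0.084, adjusted p = 3.9e-10). Cdx2, a homeobox factor of the intestine, fell from 27.5, 55.6 and 56.8 to 1.47, 1.64 and 1.62 TPM, with parental library 1 the lowest of its group. Gata6, a factor of foregut and pancreas, fell from 17.4, 21.4 and 20.8 to 1.77, 1.38 and 1.20 TPM. Pdx1, the homeobox factor that founds the pancreas, changed far less, from 82.7, 101 and 103 to 60.3, 54.9 and 61.5 TPM (-0.68 ± 0.088). Sox9, a factor of duct and progenitor cells, rose instead, from 8.56, 4.80 and 4.86 to 43.6, 39.2 and 41.4 TPM (2.62 ± 0.20, adjusted p = 2.3e-05). Tff2, a trefoil peptide of the stomach, rose by 1.52, and Gata4, a factor of stomach and pancreas, had a difference of -0.14 that did not pass (adjusted p = 0.073).

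Products of gut and stomach-type epithelium were among the most strongly lowered genes of the whole table. The 15 lowest log2 differences among genes with at least 10 TPM in the higher group included Anxa13, an annexin of intestinal epithelium, from 307, 497 and 481 to 0.526, 0.624 and 0.344 TPM (-8.13 ± 0.20, adjusted p = 1.0e-07). They also included Lgals4, an intestinal galectin, from 402, 886 and 855 to 1.73, 1.75 and 2.02 TPM, and Ctse, the gastric protease cathepsin E, from 83.1, 74.9 and 74.4 to 0.0952, 0.0753 and 0.0373 TPM. Psca, a surface antigen of stomach and pancreatic tumors, fell from 118, 93.2 and 93.8 to 0, 0.109 and 0.108 TPM, and Prom1, the apical membrane protein prominin-1, from 94.2, 92.7 and 87.8 to 0.243, 0.0891 and 0.107 TPM. Parental library 1 was the lowest of its group for Anxa13 and Lgals4 and the highest for Ctse, Psca and Prom1, and the e2 libraries lay far below all of them. The same 15 held Gcnt3, an enzyme of mucin sugar chains (-6.33), Rab25, a GTPase of epithelial membrane recycling (-6.11), S100a14 (-7.27), the transcription factor gene Myrf (-6.27), the growth factor carrier Fgfbp1 (-6.18) and Il5ra, a cytokine receptor of eosinophils (-6.25). Cck, the gut hormone cholecystokinin, rose instead, from 0.585, 0.675 and 1.25 to 318, 302 and 324 TPM (7.44 ± 0.12, adjusted p = 1.1e-09).

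**Figure D3:**
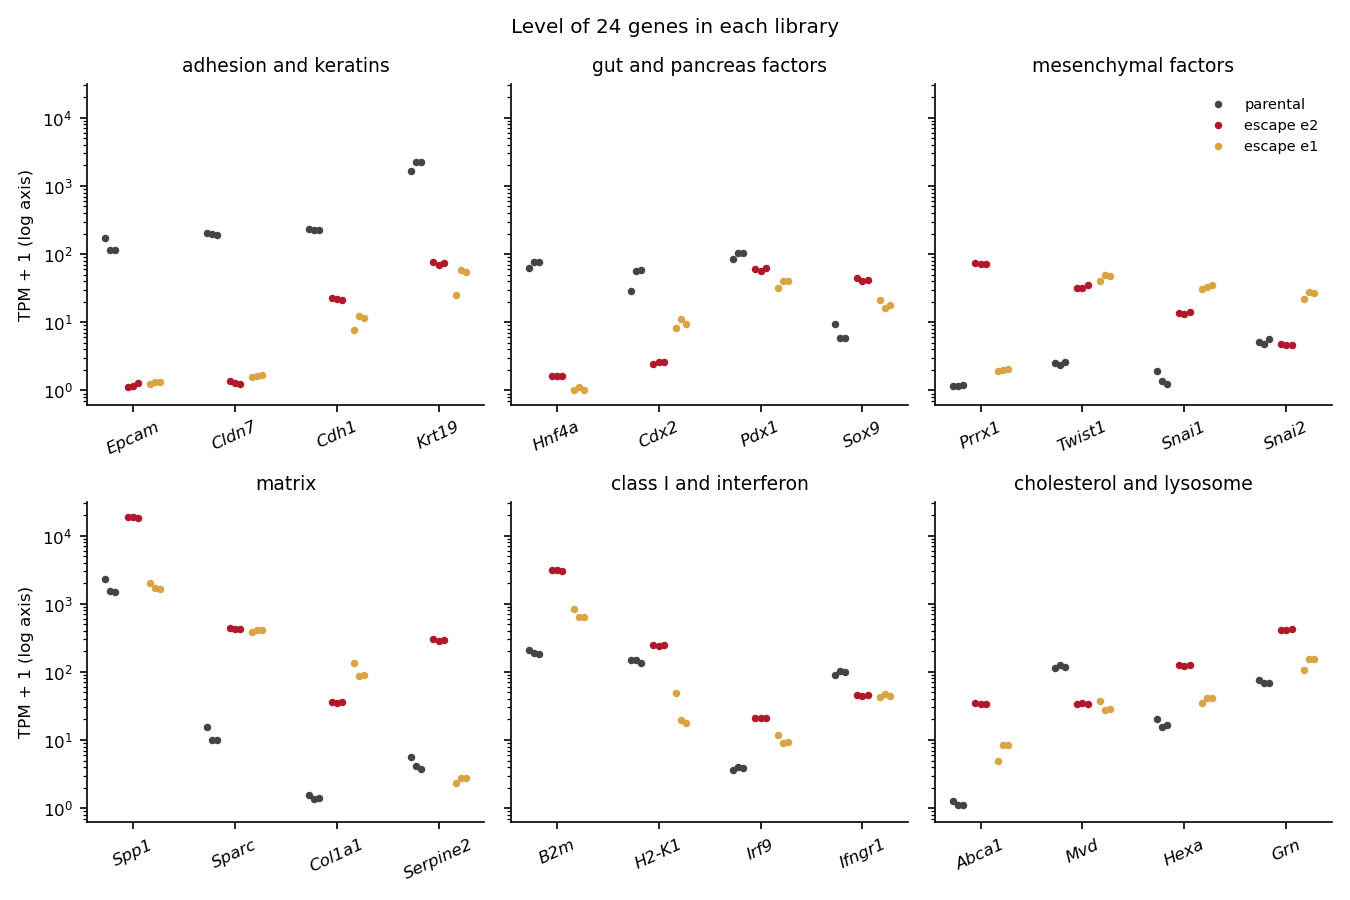
Each dot is the level of a gene in 1 library, as TPM + 1 on a log axis, for 24 genes in 6 groups; dark dots are parental, red dots escape e2 and yellow dots escape e1 libraries. The 3 e2 dots of a gene nearly coincide, Epcam and Cldn7 drop below 2 on this axis, and Snai2 is the gene whose e2 and parental levels lie closest.

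Factors of the mesenchymal transition rose with a few exceptions. Of 24 in the table, 16 were tested, 13 rose, 2 fell and 1 passed in neither direction (median 2.15), and 5 had reached the filter in e2 alone and 2 in parental cells alone. Prrx1, a homeobox factor of limb and mesenchyme, showed the steepest rise, from 0.174, 0.157 and 0.200 to 72.9, 71.0 and 70.2 TPM (5.94 ± 0.055, adjusted p = 4.5e-11). Twist1, a basic helix-loop-helix repressor of epithelial genes, rose from 1.54, 1.33 and 1.60 to 31.1, 31.2 and 34.0 TPM, and its paralog Twist2 from 2.61, 2.76 and 3.29 to 61.5, 61.2 and 65.0 TPM. The zinc finger repressor Snai1 rose from 0.902, 0.356 and 0.244 to 12.5, 12.4 and 13.05 TPM and Zeb1 from 4.05, 5.08 and 5.32 to 11.04, 10.4 and 11.1 TPM. Snai2, on the other hand, stood at 4.05, 3.87 and 4.63 TPM in parental and 3.83, 3.66 and 3.59 TPM in e2 libraries and did not pass (-0.14 ± 0.077, adjusted p = 0.12). With median-ratio scaling in place of TPM as deposited, Snai2, a gene of chromosome 16, was lower (-0.20, adjusted p = 0.043). The members that fell were Msx2 (-2.08) and Snai3 (-3.17), while Msx1, a homeobox paralog of Msx2, rose from 0.0336, 0.0649 and 0 to 24.7, 23.2 and 23.5 TPM. In the same direction as Prrx1, further developmental factors outside the lists, chosen after their values were seen, were near 0 in every parental library: Foxl1, a forkhead factor of gut mesenchyme, reached 16.1, 14.02 and 13.9 TPM in e2, Nkx3-2, a homeobox factor of somites and gut mesenchyme, 12.8, 11.2 and 13.97 TPM, and Mef2c, a muscle factor on chromosome 13, 19.1, 17.7 and 17.6 TPM.

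Mesenchymal effectors, collagens and matrix genes rose together. Of 26 tested effectors of cytoskeleton and adhesion, 23 rose and 1 fell (median 1.58, with 12 that reached the filter in e2 alone). Vim, the intermediate filament vimentin, rose from 574, 936 and 901 to 3674, 3501 and 3612 TPM, and N-cadherin, Cdh2, from 0.365, 0.595 and 0.674 to 31.0, 30.2 and 29.8 TPM. Pdpn, the membrane mucin podoplanin, rose from 0.0364, 0.137 and 0.0433 to 71.0, 69.9 and 70.0 TPM. Of the contractile genes, Acta2, smooth muscle actin, reached 21.97, 21.0 and 20.9 TPM from 0.0491, 0.0949 and 0.0292 TPM, and Cnn1, calponin, a mean of 1.86 TPM. Tgfbi, a secreted protein induced by TGF-beta and a gene of chromosome 13, reached 46.2, 44.0 and 44.6 TPM from 0.0941, 0.159 and 0.0839 TPM. Itgb3, an integrin subunit, was the member that fell (-0.23, adjusted p = 0.034), and its call was lost without parental library 1 or 2 or any of the e2 libraries (adjusted p 0.053 to 0.11).

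Of 20 tested collagens, 17 rose and 2 fell (median 2.38, with 9 that reached the filter in e2 alone and 1 in parental cells alone). Col1a2, which encodes a chain of fibrillar collagen I, had 84.3, 78.7 and 83.0 TPM in e2 and was listed at 0 in the 3 parental libraries. Col3a1, the chain of collagen III, was also listed at 0 there and stood at 54.7, 52.96 and 53.4 TPM. Col1a1 rose from 0.540, 0.354 and 0.400 to 35.6, 34.0 and 34.7 TPM, a lower level than that of Col1a2. The basement membrane pair Col4a1 and Col4a2, already expressed in parental cells, differed by 0.67 and by 0.17, the latter with an adjusted p of 0.23. Col27a1 and Col7a1 fell (-1.46 and -0.62).

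Among matrix glycoproteins and proteoglycans, 26 of 35 rose and 6 fell (median 2.10, with 14 that reached the filter in e2 alone). Sparc, a collagen-binding matricellular protein, rose from 14.7, 8.88 and 9.04 to 432, 429 and 431 TPM. Mgp, matrix Gla protein, an inhibitor of calcium deposits, reached 146, 146 and 137 TPM in e2 and was listed at 0 in all 3 parental libraries. Aebp1, a collagen-binding protein of connective tissue that is among the 15 steepest rises though outside the list, rose from 0.889, 0.320 and 0.305 to 125, 122 and 125 TPM. The members that fell most were Acan, the cartilage proteoglycan aggrecan (-2.14), the growth factor binder Igfbp3 (-1.69) and Ctgf, a matricellular protein (-1.52).

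Matrix proteases and their inhibitors changed as well. Of 24 tested genes, 18 rose and 6 fell (median 1.16), and 9 had reached the filter in e2 alone. The plasminogen activators fell: Plat, the tissue type, from 259.9, 215 and 211 to 15.5, 15.7 and 15.1 TPM (-3.80 ± 0.079, adjusted p = 1.9e-09), and Plau, urokinase, from 149, 109.9 and 106 to 11.2, 10.5 and 10.9 TPM. Serpine2, a serpin that inhibits thrombin, urokinase and tissue plasminogen activator, rose from 4.68, 3.21 and 2.76 to 297, 285 and 291 TPM (6.03 ± 0.14, adjusted p = 1.2e-08). Metalloprotease inhibitors of the Timp family rose, Timp1 by 1.60, Timp2 by 1.10 and Timp3 by 2.13. Metalloproteases divided: the stromelysin Mmp3 reached 28.2, 26.7 and 26.7 TPM and the gelatinase Mmp2 16.5, 16.7 and 17.1 TPM from below 0.5 TPM, whereas the collagenase Mmp13 and the membrane-type protease Mmp15 fell (-1.99 and -1.74).

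Because these genes are also those of stromal cells, markers of other cell types were read in the same libraries. Of 12 fibroblast markers, 10 were tested, 9 rose and 1, Fbln1, fell (-0.91), and all 9 that rose had reached the filter in e2 alone. Col1a2, Col3a1, Dcn and Pdgfrb, which define fibroblasts, were listed at 0 in the 3 parental libraries. The 12 markers together stood at 17.1 to 20.1 TPM in the parental libraries and 348 to 361 TPM in the e2 libraries. Of 14 immune markers none reached the filter, and their sum was 1.18 to 1.33 TPM in parental and 1.57 to 2.44 TPM in e2 libraries, with 4 at 0 in all 6 libraries. Of 9 endothelial markers only Plvap was tested, and it rose to 63.2, 63.9 and 63.2 TPM from 0, 0 and 0.114 TPM, while the 9 together stood at 0.544 to 0.905 TPM in parental and 63.7 to 64.6 TPM in e2 libraries. Of 8 pericyte and smooth muscle markers 2 were tested, and Cspg4, a surface proteoglycan, rose (4.002) while Mcam did not pass (adjusted p = 0.61, and 0.0076 without parental library 1). Of 6 mesothelial markers 2 were tested and both fell, Msln (-2.58) and Upk1b (-3.05). Of 8 Schwann and neural crest markers 4 were tested, with 2 higher and 2 lower, and of 12 acinar and islet markers Cela1 alone was tested, and it rose (2.57). Of 11 duct epithelium markers 10 fell and Sox9 rose, with a sum of 8366 to 9668 TPM in parental and 1778 to 1848 TPM in e2 libraries. The fibroblast markers overlap the mesenchymal, collagen and matrix lists, and the part of any admixed cell in these results was not tested.

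Some of the steepest rises lay outside the lists of function. Cd34, a sialomucin of blood stem cells and vessel lining, rose from 0.518, 0.636 and 0.643 to 206, 199.98 and 199 TPM (6.99 ± 0.053, adjusted p = 3.2e-11), and Olfm1, a secreted olfactomedin first known from neurons, from 0, 0 and 0.0279 to 108, 109 and 108 TPM. Slpi, a protease inhibitor that epithelial surfaces secrete, rose from 0.427, 0 and 0.406 to 113, 109.6 and 115 TPM. Syt13, a relative of the synaptic vesicle synaptotagmins, rose from 0.131, 0.222 and 0.0782 to 84.7, 82.4 and 84.9 TPM. Xlr, a member of an X-linked family of close copies that can share reads, stood at 0.210, 0.307 and 0.167 TPM in parental and 96.5, 96.9 and 93.2 TPM in e2 libraries. Prl2c2, a placental hormone gene of the prolactin family on chromosome 13, rose from 11.2, 17.0 and 14.9 to 331, 339 and 325 TPM, with the same limit for its copy Prl2c3. The 5 tested Hox genes, patterning factors of the body axis, all fell (median -2.14, with 4 that had reached the filter in parental cells alone).

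Antiviral genes rose in e2, in cells that had received no treatment. Of 60 interferon-stimulated genes, 53 were tested, 50 rose and 2 fell (median 2.18). Of these, 32 had reached the filter in e2 alone, so most of the count comes from genes that had to differ. The group includes the steepest rise of the table: Ifitm3, a membrane protein that blocks virus entry, from 0.256, 0 and 0 to 822, 811 and 816 TPM (9.57 ± 0.088, adjusted p = 4.5e-11). Its neighbour Ifitm1 rose from 0.121, 0.116 and 0 to 81.5, 79.3 and 79.1 TPM, and Ifitm2, already expressed in parental cells, from 166, 141 and 126 to 754, 774 and 749 TPM. Isg15, a ubiquitin-like modifier, rose from 1.02, 0.996 and 1.23 to 32.3, 32.3 and 30.9 TPM, and the oligoadenylate synthetase relative Oasl2 from 0.457, 0.192 and 0.284 to 22.8, 21.997 and 25.004 TPM. All 12 tested interferon-induced GTPases rose (median 2.71), 11 of them from below the filter. The response was uneven within the list: Ifit1 rose by 3.25, Rsad2, viperin, by only 1.08 to a mean of 1.31 TPM, Ifit2 passed in neither direction (-0.12, adjusted p = 0.13), Trim25, a ubiquitin ligase of RNA sensing, fell by 0.29, and Isg20, an exonuclease, fell from 57.7, 60.4 and 53.05 to 20.03, 25.1 and 18.8 TPM.

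Interferon transcripts themselves were hardly seen. Ifng was listed at 0 in all 6 libraries, and Ifnb1 was listed at 0 in the parental libraries and at 0.211, 0.125 and 0.249 TPM in e2. At the level of receptors and kinases, 4 of 10 genes rose and 6 fell (median -0.32). Ifngr1, the ligand-binding chain for interferon gamma, fell from 88.7, 101 and 97.1 to 45.4, 42.7 and 44.9 TPM (-1.09 ± 0.059, adjusted p = 4.3e-07), and Jak2, its kinase, from 49.7, 54.1 and 52.6 to 34.2, 33.9 and 34.0 TPM. Ifnlr1, the receptor of type III interferons, fell from 5.94, 4.60 and 4.96 to 0.0481, 0.0966 and 0.0376 TPM. Ifnar1 and Ifnar2, the type I receptor chains on chromosome 16, fell by 0.14 (adjusted p = 0.025) and 0.51, and the call of Ifnar1 was lost without parental library 2 or 3 or any e2 library (adjusted p 0.053 to 0.080). Downstream factors went up: of 20 tested factors and feedback genes 13 rose and 2 fell. Irf9 rose from 2.64, 3.08 and 2.91 to 20.1, 20.3 and 19.8 TPM (2.44 ± 0.063, adjusted p = 5.8e-09) and Irf7 from 0.655, 1.05 and 0.664 to 20.7, 23.6 and 21.9 TPM. Irf1, an early interferon gamma target, rose by 1.24 (adjusted p = 2.4e-07). Among feedback genes the phosphatase gene Ptpn6 and Socs2 fell (-1.70 and -1.40), and Socs1 differed by -0.030 (adjusted p = 0.81).

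Sensors of nucleic acids rose as a group, 21 of 25 higher and 2 lower, with a median of 1.33 and 7 that reached the filter in e2 alone. Mb21d1, the DNA sensor cGAS, rose from 0.277, 0.377 and 0.323 to 6.94, 7.02 and 6.17 TPM, and Tmem173, its adaptor STING, from 3.91, 4.15 and 4.16 to 17.4, 17.4 and 16.3 TPM. Ddx58, the RNA sensor RIG-I, rose by 3.37, and Zbp1, which detects left-handed helices, by 4.17. The kinase gene Ikbke and the RNA receptor gene Tlr3 fell (-1.23 and -1.49).

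Antigen presentation through class I rose. Of 26 tested genes of the class I list, 22 rose and 1, the chaperone gene Calr, fell (-0.22), with a median of 1.08 and 7 that reached the filter in e2 alone. B2m, the light chain shared by all class I molecules, rose from 206, 189 and 182 to 3072, 3113 and 3002 TPM (3.99 ± 0.051, adjusted p = 1.8e-10), a mean 15.9-fold higher. The classical heavy chains rose less: H2-D1 from 91.6, 108 and 102 to 375, 359 and 368 TPM and H2-K1 from 149.96, 149 and 135 to 243, 242 and 249.9 TPM (0.76 ± 0.050, adjusted p = 1.7e-06). In a fit of all 9 libraries, where escape e1 adds its own spread, the H2-K1 difference did not pass (adjusted p = 0.078). Peptide supply moved with them. The immunoproteasome subunit gene Psmb8 rose from 0.227, 0.219 and 0.202 to 21.6, 22.99 and 21.96 TPM, the transporter gene Tap1 from 0.127, 0.148 and 0.429 to 7.999, 8.24 and 8.89 TPM, and Nlrc5, the class I transactivator, from 0.104, 0.0753 and 0.0309 to 5.41, 6.10 and 5.95 TPM. The heavy chain genes are near-identical copies of each other, and how reads were shared between them is not given in the sources used here, so H2-D1, H2-K1 and the H2-Q genes carry that uncertainty. Class II genes remained at the floor of the table, with 1 of 11 tested.

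Checkpoint ligands, which restrain or engage immune cells, showed no common direction. Of 20 tested checkpoint ligands, 11 rose and 9 fell (median 0.32), and 4 had reached the filter in e2 alone and 2 in parental cells alone. Cd274, which encodes PD-L1, stood at 1.45, 1.62 and 1.97 TPM in parental and 2.28, 2.10 and 2.36 TPM in e2 libraries (0.28 ± 0.091, adjusted p = 0.020), and the call was lost without parental library 2 or e2 library 1 or 3 (adjusted p 0.058 to 0.067). Cd47, the signal against phagocytosis, rose from 50.1, 57.6 and 53.4 to 137, 131 and 135 TPM, whereas Lgals9, galectin-9, fell from 133, 151 and 151 to 42.5, 44.1 and 43.1 TPM. Genes of NK cell adhesion and ligands of the NK receptor NKG2D were mostly lower, 6 of 9 tested (66.7%), with 2 higher (22.2%) and a median of -1.23. Among the ligands, Ulbp1 was higher (0.81) and Raet1d, Raet1e and H60b were lower (-2.15, -1.25 and -1.23). In cell death, the receptor gene Fas rose from 0.522, 0.154 and 0.215 to 7.86, 8.12 and 8.37 TPM, Casp8, the caspase it recruits, differed by 0.16 (adjusted p = 0.046, lost without parental library 1 or 3 or any e2 library, adjusted p 0.053 to 0.15), and Ripk3, a kinase of necroptosis, fell from 17.8, 28.8 and 26.7 to 8.43, 7.64 and 7.39 TPM. Adhesion molecules for leukocytes moved in opposite directions, Vcam1 from 17.4, 16.6 and 14.8 to 175, 171 and 169 TPM and Icam1 from 17.5, 17.2 and 15.95 to 1.87, 2.53 and 2.65 TPM.

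The secreted signals of the cells changed in kind. Of 13 tested chemokines for T cells and monocytes, 9 rose and 3 fell (median 1.81, with 6 that reached the filter in e2 alone). Ccl2, the main attractant of monocytes, rose from 0.762, 0.458 and 0.453 to 96.5, 96.4 and 93.0 TPM (5.96 ± 0.082, adjusted p = 2.9e-10), its neighbour Ccl7 to a mean of 29.0 TPM from 0.0382 TPM, and Csf1, the macrophage growth factor, from 13.96, 11.3 and 11.9 to 144, 142 and 141 TPM. Cxcl10, an attractant of T cells that interferon induces, rose from 3.09, 2.67 and 1.84 to 20.1, 16.8 and 15.4 TPM. Cxcl12, a stromal attractant of many leukocytes, rose by 3.11 (adjusted p = 2.4e-08). Of 8 tested neutrophil chemokines and colony-stimulating factors, 3 fell, 3 rose, Csf1 among them, and 2 did not pass (median -0.30). Cxcl5 fell from 93.9, 56.0 and 51.8 to 21.5, 21.1 and 18.6 TPM, Ppbp, a platelet-type CXC chemokine, from 65.0, 29.0 and 28.9 to 0.275, 0.407 and 0.565 TPM, and Csf3, the granulocyte growth factor, from 13.1, 10.4 and 9.09 to 1.57, 0.681 and 1.04 TPM. Parental library 1 had the highest value of these 3 genes, and e2 lay below all 3 parental libraries. The other 2 that rose were Cxcl2, a neutrophil attractant (1.19), and Il34, another macrophage growth factor (1.37). Csf2 stood at 13.6, 11.8 and 11.1 TPM in parental and 10.3, 11.3 and 12.1 TPM in e2 libraries and did not pass (adjusted p = 0.29). Il33, an epithelial alarmin, fell from 21.5, 26.8 and 25.5 to 1.73, 2.03 and 1.61 TPM.

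The listed cytokine receptors rose nearly throughout, 15 of 17 higher and 2 lower (median 1.85), with 4 that reached the filter in e2 alone. Receptors of the gp130 family, which signals for interleukin-6 and its relatives, were among those that rose: Il6st, the shared chain on chromosome 13, from 14.8, 13.9 and 14.1 to 81.0, 78.1 and 78.0 TPM, Il6ra by 1.86, Il11ra1 by 2.21, Lifr by 1.78 and Osmr by 1.99. Their STAT factor Stat3 rose from 19.7, 21.8 and 20.9 to 46.2, 44.4 and 45.2 TPM and its feedback inhibitor Socs3 from 15.95, 24.5 and 23.5 to 55.2, 52.1 and 54.1 TPM. The members of the list that fell were the receptors of interleukin-18 and interleukin-22, Il18r1 (-2.40) and Il22ra1 (-3.56), both known from epithelial barriers. Receptors outside the list did not share its direction. Il5ra was among the lowest differences of all (-6.25), and of 10 interferon receptors and kinases, counted apart, 4 rose and 6 fell.

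**Figure D4:**
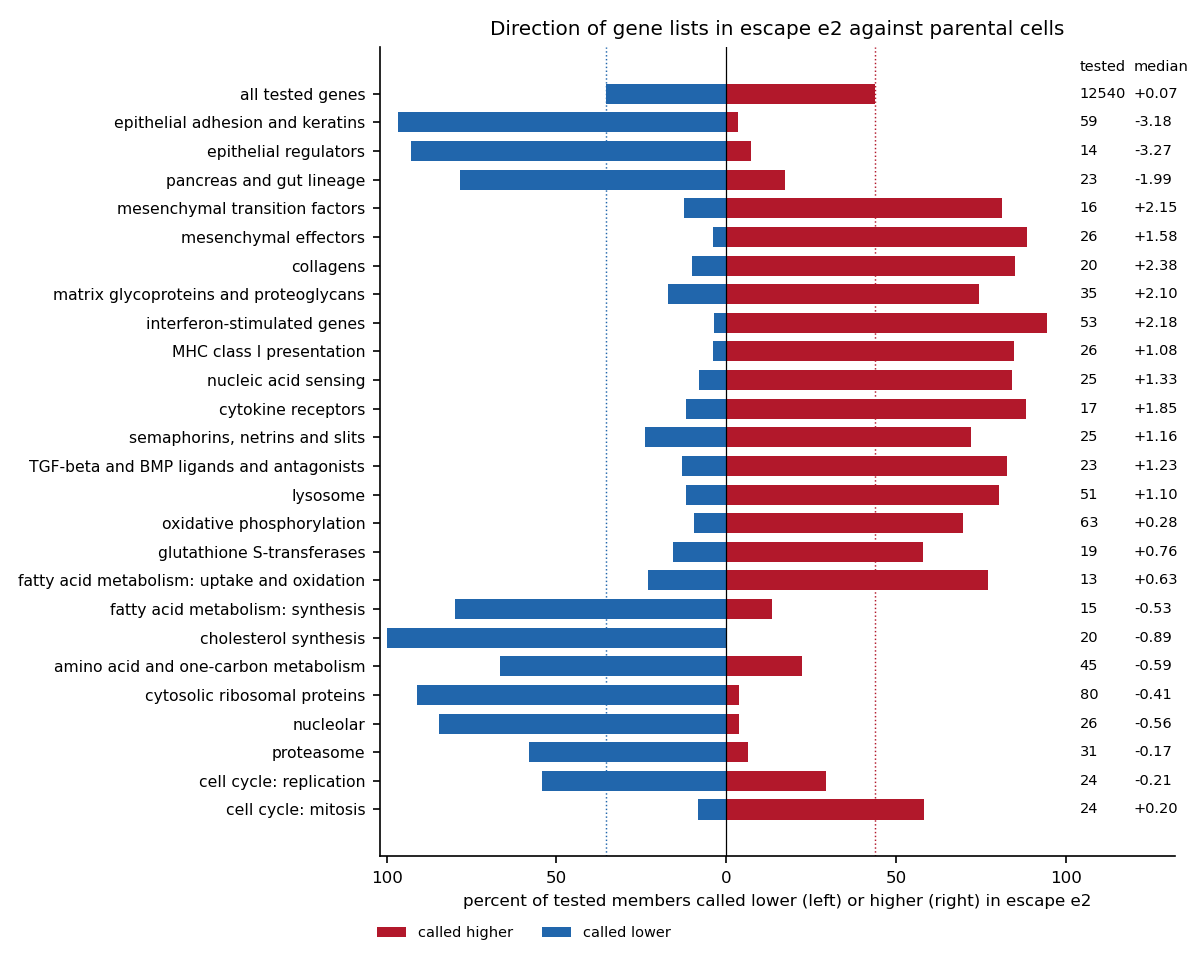
For each gene list, bars give the percent of tested members called lower (blue, left) and higher (red, right) in e2 against parental cells, with the number tested and the median log2 difference at the right; dotted lines mark the 43.7% and 35.5% of all tested genes. The epithelial lists and cholesterol synthesis extend almost wholly to the left, and the interferon-stimulated, collagen and cytokine receptor lists to the right.

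In TGF-beta and BMP signalling, most secreted factors rose. Of 23 tested ligands and antagonists 19 rose and 3 fell (median 1.23, with 8 that reached the filter in e2 alone). Grem1, a secreted antagonist that binds BMP2 and BMP4, rose from 0.121, 0.0390 and 0 to 491, 473 and 481 TPM (8.84 ± 0.056, adjusted p = 3.0e-11), the second highest difference among genes with at least 10 TPM. Tgfb1 rose from 20.3, 22.3 and 23.6 to 86.7, 81.6 and 83.1 TPM, Tgfb3 by 2.69, and the latent binding proteins Ltbp1 and Ltbp2 by 2.66 and 3.17. Of 20 receptors and Smads, 10 rose, 4 fell and 6 passed in neither direction (median 0.19). Tgfbr2, the ligand-binding receptor, fell from 55.0, 57.1 and 56.8 to 39.1, 38.8 and 36.8 TPM, and Smad4, the shared mediator, differed by 0.13 (adjusted p = 0.099). The BMP targets Id1 and Id2 fell (-1.01 and -0.80), Id3 differed by 0.11 (adjusted p = 0.45), and Id4 rose from 0.279, 0.269 and 0.379 to 25.1, 24.7 and 25.3 TPM.

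Receptor tyrosine kinases changed in both directions, by family. In the EGF family 6 of 9 genes fell and 2 rose (median -0.48): Egfr fell from 18.3, 12.4 and 13.5 to 3.65, 3.54 and 4.0003 TPM and Erbb3 from 12.7, 9.53 and 9.92 to 0.975, 0.874 and 1.14 TPM. In the PDGF and VEGF family 11 of 17 rose and 5 fell (median 1.62, with 4 that reached the filter in e2 alone). Pdgfrb, a receptor of fibroblasts and pericytes, was listed at 0 in the parental libraries and reached 23.3, 21.5 and 22.2 TPM in e2, and the co-receptor Nrp2 rose from 15.5, 16.2 and 17.1 to 166, 159 and 162 TPM. Fgfr1 rose from 3.04, 1.51 and 1.71 to 42.0, 38.3 and 41.1 TPM, while Fgfr4 fell (-1.40). Of the collagen receptors, Ddr2, which binds fibrillar collagen, rose from 0.0650, 0.0140 and 0.0430 to 38.02, 38.3 and 37.6 TPM, and Ddr1, its epithelial paralog, fell by 0.98. Hgf, the ligand of Met, rose from 0, 0.0230 and 0 to 24.9, 24.9 and 23.3 TPM, and Met itself from 32.0, 35.4 and 35.8 to 50.6, 49.7 and 49.5 TPM, so transcripts of ligand and receptor were both present in e2. Epha2, an ephrin receptor of epithelia, fell by 0.20 (adjusted p = 0.016), a call that was lost without parental library 2 or 3 or e2 library 2 (adjusted p 0.052 to 0.060).

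Guidance cues, first known from growing axons, also rose: of 25 tested semaphorins, netrins, slits and their receptors, 18 were higher and 6 lower (median 1.16). Plxnd1, a semaphorin receptor, rose from 2.13, 1.07 and 0.922 to 54.2, 53.1 and 53.8 TPM, Slit2 from 2.23, 1.49 and 1.55 to 39.3, 36.4 and 36.6 TPM and Ntn1, netrin-1, from 2.20, 1.26 and 1.29 to 31.8, 31.7 and 31.8 TPM. Ephrins and Eph receptors, of which 5 rose and 6 fell among 15, had a median of -0.15. Wnt genes were also mixed (18 higher and 15 lower of 36, median 0.07, that of all genes, with 9 that reached the filter in e2 alone and 5 in parental cells alone), as were Notch genes (4 and 6 of 11) and Hippo genes (9 and 11 of 26). Hhip, a decoy receptor of Hedgehog ligands, rose from 0.00658, 0.0127 and 0 to 49.2, 47.6 and 48.4 TPM, and Gas1, a Hedgehog co-receptor on chromosome 13, from 1.53, 0.941 and 0.923 to 73.2, 65.8 and 74.7 TPM. The Notch ligand genes Jag1 and Jag2 fell (-1.70 and -2.02). Of 8 tested target genes of the Hippo pathway 5 fell and 2 rose (median -0.58). The YAP targets Ctgf, Ankrd1 and Ajuba fell (-1.52, -1.34 and -1.52), while Cyr61, another YAP target, differed by 0.25 and did not pass. Yap1 itself fell by 0.54, and its paralog Wwtr1, TAZ, rose by 1.32.

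Immediate early factors, which respond to growth signals within minutes, were mixed in direction, 10 of 18 higher and 4 lower. Egr1 rose from 21.3, 49.99 and 47.1 to 243, 235 and 240.1 TPM (2.66 ± 0.36, adjusted p = 0.0019). Jun rose from 14.3, 18.2 and 18.6 to 75.1, 71.9 and 74.4 TPM, and Atf3, a stress-induced factor, fell from 17.5, 16.5 and 17.2 to 3.26, 3.58 and 2.90 TPM. Fos stood at 23.9, 95.6 and 88.5 TPM in parental and 221, 213 and 220.3 TPM in e2 libraries (1.87 ± 0.61, adjusted p = 0.045), with parental library 1 far below the other parental libraries. Without that library the Fos difference was 1.23 (adjusted p = 4.7e-10). Without any other single library the Fos call was lost (adjusted p 0.050 to 0.11).

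Genes of sterol synthesis fell. All 20 tested enzymes of cholesterol synthesis fell, with a median of -0.89, and their sum was 2769 to 2863 TPM in the parental and 1433 to 1473 TPM in the e2 libraries. In a fit of all 9 libraries 1 of the 20 no longer passed. The mevalonate enzyme gene Mvd fell from 115, 127 and 118 to 33.3, 33.3 and 32.8 TPM (-1.82 ± 0.050, adjusted p = 7.7e-09). The 15 genes of sterol regulation and transport were mixed, 9 higher and 5 lower (median 0.18). The transcription factor genes changed little, Srebf2 by -0.28 and Srebf1 by 0.29. Among the members that rose, Abca1, the pump that exports cholesterol from cells, went from 0.255, 0.107 and 0.0967 to 33.6, 32.2 and 33.1 TPM (4.88 ± 0.074, adjusted p = 3.9e-10), and Abcg1, another sterol exporter, from 2.94, 2.16 and 2.02 to 13.2, 12.2 and 13.4 TPM.

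Fatty acid genes fell for synthesis and rose for uptake and oxidation. Of 15 genes of synthesis and chain modification, 12 fell and 2 rose (median -0.53), Fasn, the synthase, from 103, 86.1 and 90.7 to 66.2, 62.6 and 64.1 TPM and Scd2, a desaturase, from 797, 811 and 816 to 419, 399.6 and 405 TPM. Of 13 genes of uptake and oxidation, 10 rose and 3 fell (median 0.63). Slc27a1, a fatty acid transporter, rose from 3.24, 2.55 and 2.21 to 55.3, 57.0 and 56.6 TPM, Ppargc1a, a coactivator of mitochondrial genes, from 2.73, 1.22 and 1.56 to 17.3, 17.2 and 17.4 TPM, and Acadvl, the first dehydrogenase of long-chain oxidation, from 45.9, 48.7 and 48.9 to 100.2, 98.9 and 99.2 TPM. Pparg, a lipid-sensing nuclear receptor, fell from 50.5, 70.6 and 66.5 to 29.3, 30.8 and 29.6 TPM.

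Lysosomal genes rose broadly. Of 51 tested, 41 rose and 6 fell (median 1.10), only 3 had reached the filter in e2 alone, and their sum was 3569 to 3815 TPM in the parental and 8149 to 8327 TPM in the e2 libraries. Hexa, a subunit of the hydrolase that breaks down gangliosides, rose from 19.02, 14.5 and 15.7 to 124, 121 and 124 TPM (2.84 ± 0.087, adjusted p = 1.5e-08). Grn, the secreted and lysosomal protein progranulin, rose from 75.3, 68.5 and 66.6 to 409, 413 and 418 TPM, Psap, the precursor of the saposins, from 198, 194 and 193 to 582, 577 and 574 TPM, and Npc2, which hands cholesterol out of the lysosome, from 66.3, 53.1 and 53.3 to 206, 203 and 197 TPM. Gpnmb, a glycoprotein of lysosomes and melanosomes, rose from 0.273, 0.198 and 0.125 to 158, 155 and 154 TPM. Of the transcription factors that control lysosomal genes, Mitf and Tfe3 rose (1.83 and 1.10), and Tfeb differed by 0.080 (adjusted p = 0.44). Ctsh, a cathepsin, was the hydrolase that fell most (-2.26).

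Translation genes fell, mostly by small amounts. Of 80 cytosolic ribosomal protein genes, 73 fell and 3 rose (median -0.41), 3 fell by at least 1, and their sum was 212830 to 219654 TPM in the parental and 164428 to 168421 TPM in the e2 libraries, the largest shift in amount among the lists. Rps2 fell from 8716, 8690.4 and 8597 to 5700.4, 5687 and 5706 TPM (-0.61 ± 0.028, adjusted p = 1.8e-07). The exceptions that rose were Rps6, Rps23 and Rpl31 (0.39, 0.34 and 0.22). Many processed copies of these genes exist in the genome, so reads may be shared with them. Nucleolar genes of ribosome assembly fell with them, 22 of 26 lower and 1 higher (median -0.56), for instance Nolc1, a nucleolar scaffold, from 165, 207 and 199.9 to 83.5, 82.7 and 82.8 TPM. Myc, a driver of ribosome assembly, fell from 150.004, 169.5 and 165 to 81.8, 79.9 and 79.2 TPM (-0.997 ± 0.053), its relative Mycn fell by 1.997, and the Max partner and Myc antagonist gene Mxd3 rose from 7.18, 5.50 and 4.90 to 44.9, 40.8 and 42.6 TPM. Proteasome genes of the standard particle fell slightly, 18 of 31 lower and 2 higher (median -0.17), while the immunoproteasome gene Psmb8 rose. TPM is a share, so a gain of abundant genes lowers the share of others. With median-ratio scaling the median of all tested genes was 0.00 in place of 0.07 and the ribosomal median was -0.49.

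Mitochondrial genes rose by small amounts. Of 63 tested genes of oxidative phosphorylation, all encoded in the nucleus, 44 rose and 6 fell (median 0.28). Cox5b, a subunit of cytochrome oxidase, rose from 465, 496 and 497 to 988, 956 and 926 TPM and Sdha, the catalytic subunit of complex II, from 109, 122 and 120.4 to 232, 230.5 and 229.8 TPM. All 5 members on chromosome 13 rose, and the 2 on chromosome 16, Atp5j and Atp5o, fell (-0.31 and -0.45). With the authors' rlog values 39 rose and 11 fell, with a median of 0.16. Glycolytic genes were mixed: 12 of 21 rose (57.1%) and 7 fell (33.3%), with a median of 0.38. The hexokinase genes went opposite ways, Hk1 higher (0.81) and Hk2 lower (-1.84). The phosphofructokinase gene Pfkp rose by 2.75, and Ldhb, the heart-type lactate dehydrogenase, from 0.296, 0.114 and 0.313 to 10.4, 13.2 and 10.8 TPM, while Gapdh differed by -0.012 (adjusted p = 0.77).

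Amino acid and one-carbon genes fell, 30 of 45 lower and 10 higher (median -0.59). Phgdh, the first enzyme of serine synthesis, fell from 913, 904 and 848 to 459.9, 460.4 and 453 TPM, and Psat1, the next, from 454, 526 and 506 to 313, 304 and 303 TPM. Gldc, which cleaves glycine, fell from 33.3, 59.3 and 54.5 to 1.75, 2.17 and 1.98 TPM, and Cbs, the first enzyme of transsulfuration, from 11.3, 7.06 and 6.92 to 0.185, 0.0961 and 0.158 TPM. The cystine carrier gene Slc7a11 fell by 1.52. Antioxidant genes were mixed, 12 of 28 higher and 13 lower: Sod3, the extracellular superoxide dismutase, rose from 10.3, 5.51 and 4.88 to 134, 135 and 138 TPM, and Gpx2, the glutathione peroxidase of gut epithelium, fell from 55.4, 35.5 and 34.2 to 0, 0 and 0.0822 TPM. Glutathione S-transferases rose in 11 of 19 and fell in 3 (median 0.76), with Mgst1, a membrane-bound member, higher, from 38.4, 14.6 and 17.9 to 189.8, 178 and 176 TPM, and the alpha class genes Gsta1 and Gsta4 lower (-4.82 and -2.27).

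Cell cycle genes changed by small amounts. Of 24 mitotic genes 14 rose and 2 fell (median 0.20), and of 24 replication genes 7 rose and 13 fell (median -0.21). Mki67, the proliferation antigen, stood at 39.1, 43.4 and 45.4 TPM in parental and 61.6, 58.2 and 60.05 TPM in e2 libraries (0.48 ± 0.061, adjusted p = 0.00010). The genes that set entry into S phase shifted more. Cdk4 rose from 381, 372 and 365 to 782, 789 and 761 TPM and Ccnd1, its cyclin, by 0.78, whereas Ccnd2 fell from 23.7, 31.6 and 31.4 to 4.28, 4.42 and 4.41 TPM. The inhibitor genes Cdkn1a and Cdkn2c rose by 1.21 and 1.56. Cdkn2a, the locus of p16 and p19ARF, stood at 381, 409 and 399 TPM in parental and 644, 610.5 and 633 TPM in e2 libraries, so the transcript was present in both. Trp53 stood at 181, 208 and 211 TPM in parental and 201, 199.6 and 205 TPM in e2 libraries, which overlap (adjusted p = 0.82). Usp22, a deubiquitinase, did not differ past the threshold (-0.025, adjusted p = 0.61).

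Along the genome, the differences had a chromosome pattern. On chromosome 13 the median over 496 tested genes was 0.76 and 77.4% were higher, against 43.7% of all tested genes. On chromosome 16 the median over 383 genes was -0.66 and 76.2% were lower, against 35.5%. Divided into 10 runs of neighbouring genes, every run of chromosome 13 had a median between 0.50 and 1.03, and every run of chromosome 16 one between -0.79 and -0.49. Smaller shifts lay on chromosomes 8, 17 and 19, with medians of -0.18, -0.25 and -0.27 and 50.3%, 53.7% and 55.5% of genes lower. Chromosome 18 had a median of 0.27 with 57.4% higher. Chromosomes 4 and 1 were divided. The first 4 runs of chromosome 4 had medians of 0.77, 0.72, 0.67 and 0.33 and the rest lay near 0. The first 4 runs of chromosome 1 had medians of 0.42, 0.36, 0.19 and 0.36, and the other 6 lay between -0.25 and -0.09. Each e2 library showed the shift, with chromosome 13 medians of 0.80, 0.74 and 0.77 and chromosome 16 medians of -0.64, -0.67 and -0.68 relative to the parental mean. In escape e1, compared with the same parental libraries, the median of chromosome 13 was 0.50 and that of chromosome 16 was -0.03, and in e2 minus e1 the medians were 0.25 and -0.53. No DNA was measured, and the source of these shifts was not tested. Leaving out both chromosomes left 9140 genes called of 11661, with a share of 55.1% higher among the calls, the same as with them. Of the 15 genes with the highest differences 1 lies on chromosome 13, Esm1, an endothelial-type proteoglycan that rose by 6.15, and of the 15 lowest none lies on either.

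**Figure D5:**
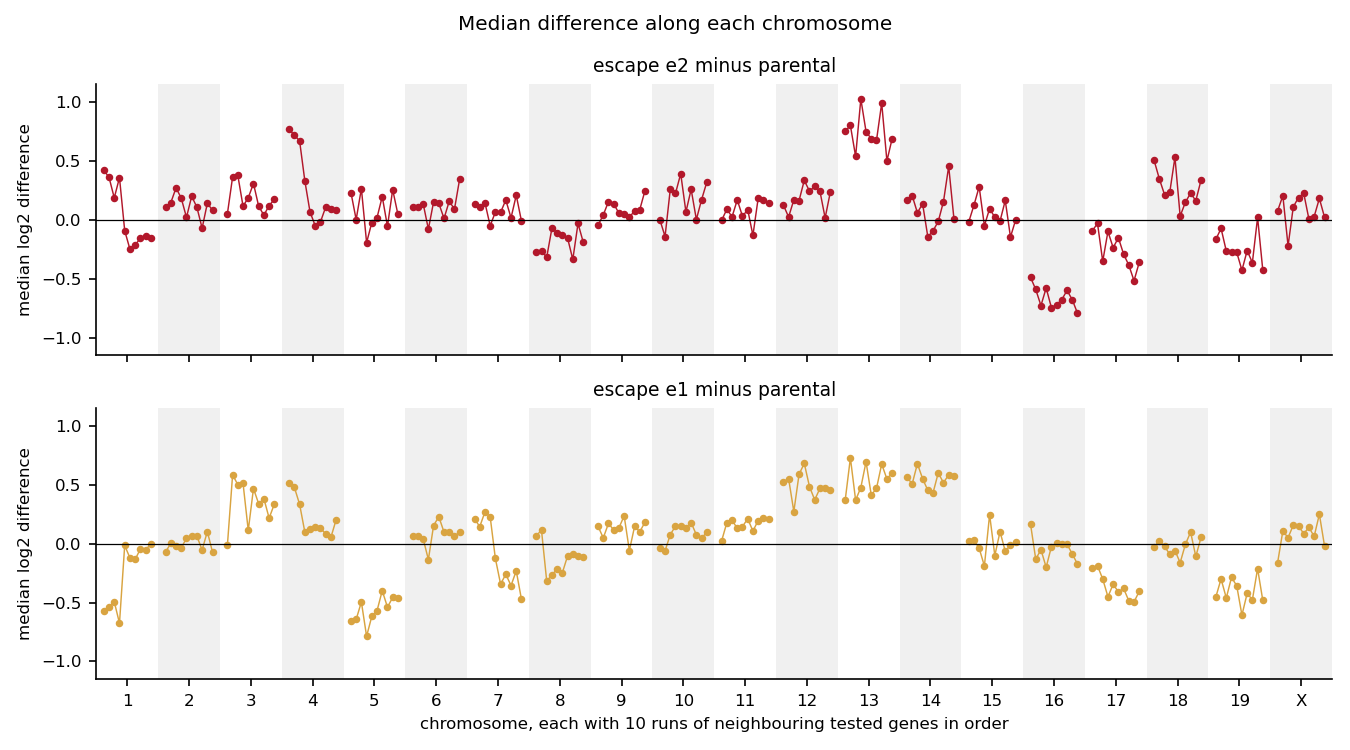
Each chromosome is divided into 10 runs of neighbouring tested genes in order, and each point is the median log2 difference of a run, for e2 (top) and e1 (bottom) against the same parental libraries. In e2 all runs of chromosome 13 lie at or above 0.50 and all runs of chromosome 16 at or below -0.49, while in e1 the chromosome 16 runs lie between -0.20 and 0.17.

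Set against escape e1, 8981 of 12769 genes differed in e2 (70.3%), 5189 higher and 3792 lower. The 15 genes with the lowest e2 differences against parental cells were low in e1 too, none with a mean above that of Anxa13, 1.56 TPM. Of these 15, 10 did not pass between e2 and e1, while 2 were higher and 3 lower in e2. Of the 15 genes with the highest differences, 13 were higher in e2 than in e1 and 2 lower. Cck had 0.615, 0.461 and 1.44 TPM in e1, Pdpn 0.0625, 0.0478 and 0.0453 TPM and Grem1 23.9, 28.1 and 29.8 TPM, each below every e2 library, with e2 minus e1 at 7.46, 6.08 and 4.10. Prrx1 stood at 0.961, 0.984 and 1.06 TPM in e1 (5.18), whereas Snai1 was higher there, at 29.3, 31.9 and 33.8 TPM (-1.26). Spp1 stood at 2009.6, 1688 and 1664 TPM in e1, near its parental level, and H2-K1 at 48.6, 18.5 and 17.0 TPM, below the parental libraries, with e1 library 1 apart from the others. Myc stood above every parental library in e1, at 549, 418 and 411 TPM, and below every one in e2 (-2.49), and so did Ccnd2, with 59.9, 51.1 and 50.9 TPM in e1 (-3.35).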

How the data were processed

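RNA from cultured mouse pancreatic tumor cells was extracted with a Qiagen kit and sequenced from libraries prepared by a company, per the labels' protocols. The authors deposited a table of TPM and a table of log2-scale values, named rlog, for the same genes and libraries. Salmon, DESeq2 and mm10 are named in the submitters' processing notes, while versions, annotation and strand setting were not given in the sources used here. Neither table is a count table, so read depth is unknown and no count test was run.

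The tests were made with limma 3.58.1 in R 4.3.3 on log2(TPM + 1), with a pseudocount of 1, a mean-variance trend, robust empirical Bayes and Benjamini-Hochberg adjustment, over genes with at least 1 TPM in 3 of the 6 libraries, and the threshold for a call was an adjusted p under 0.05. The comparison of e2 with e1 used the same settings in a fit of all 9 libraries, over genes with at least 1 TPM in 3 of the 9, so the spread of the parental libraries enters it. The procedure was tested on simulated data. Gene positions and promoters came from RefSeq tables, and for positions 23852 genes were matched by symbol and 550 by an older name. Another 5 fitted more than 1 entry and 86 fitted none, and these were left without a position. Genes were grouped in 58 lists written for this work, and the members, lists and named genes were chosen with earlier results of these data known.

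The genes named are the 15 highest and 15 lowest differences among genes with at least 10 TPM in the higher group, the 10 largest gains and losses in TPM, up to 4 members of a role in each direction together with members whose role is described, a fixed set of key genes whatever their result, and others said to be chosen after their values were seen. Of the fixed set, the chemokine gene Cxcl1 did not reach the filter, and some others are not reported here. The alternatives were another pseudocount, other filters and scalings, the rlog table, all 9 libraries in the fit, the library number as a block, plain empirical Bayes, a stricter threshold, each library left out, and, added after the data were seen, chromosomes 13 and 16 left out. Dates stood in place of 26 gene names among the rlog values, and 24467 genes could be joined.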

Additional observations from a re-analysis of the deposited data

Results flagged for a closer look

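The 2 escape lines were also compared in a test of e2 minus e1 (limma over 12769 genes, fitted to all 9 libraries), in which 8981 genes (70.3%) differed. Given here are 9 genes from the leading folds, gains and losses of e2 against parental cells. They are those whose difference between e2 and e1 was called and at least 3 in size on the log2(TPM + 1) scale. Cck was higher in e2 by 7.46, Pdpn by 6.08 and Slpi, with 0.975, 2.36 and 3.06 TPM in e1, by 5.24. Gpnmb was higher by 4.39, with 3.83, 8.67 and 7.98 TPM in e1, and Grem1 by 4.10. Cd34, at 13.4, 10.7 and 9.68 TPM in e1, was higher in e2 by 4.06, Olfm1, at 3.92, 9.72 and 8.78 TPM in e1, by 3.77, and Spp1 by 3.38. Krt7 lay below every parental library in both lines and was higher in e2 by 3.83, at 29.9, 26.3 and 28.0 TPM against 1.14, 1.16 and 0.835 TPM in e1. In each of these genes all 3 e2 libraries lay above all 3 e1 libraries. These genes were picked from the leading changes of e2, so a large difference from e1 is partly set by that choice.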

How the results depend on the processing

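The number of genes called was 9930 and stayed within 1.5 times of this in all 17 alternatives. It was 9875 with a pseudocount of 0.1, 11521 of 19050 with no filter, 8240 of 10257 with a filter of 5 TPM, 10102 with median-ratio scaling, 10137 with the 10 highest genes removed, 10132 with the rlog table, 9305 with all 9 libraries in the fit, 9856 with plain empirical Bayes, 8847 at an adjusted p under 0.01 and 9140 without chromosomes 13 and 16. Leaving out 1 library gave 9310 to 10448. No called gene was called in the opposite direction in any of these. Several of them keep the same log2 differences and so could not reverse a call. They are the fit of all 9 libraries, the replicate block, plain empirical Bayes, the stricter threshold and the run without chromosomes 13 and 16. Apart from the run without these chromosomes, they could not change a list median either. The share of calls that were higher was 55.1%, and it ranged from 48.6% (rlog) to 57.7% (10 highest removed). Of 299 named genes tested, 8 lost their call in at least 1 alternative and 9 gained one. None of 26 list medians changed sign, but 14 moved by over 1.5 times in at least 1 alternative. With no filter the median of the pancreas and gut lineage was -0.75 in place of -1.99, of transition factors 1.03 in place of 2.15, of collagens 1.19 in place of 2.38, of matrix glycoproteins and proteoglycans 1.18 in place of 2.10 and of glutathione S-transferases 0.20 in place of 0.76. With a filter of 5 TPM the lineage median was -3.15 and that of glutathione S-transferases 0.49. With a pseudocount of 0.1 the medians of interferon-stimulated genes, mesenchymal effectors, collagens and the lineage were 3.64, 2.54, 3.76 and -3.70. With the library number as a replicate block 9646 genes were called. Deviations of same-numbered libraries correlated at only 0.043, 0.042 and 0.014, although in all 3 cases the e2 library correlated best with its own number. With 3 libraries a group these values cannot decide whether same-numbered libraries belong together. Read depth is unknown, so the precision of low TPM values cannot be given, and 3 libraries a group without stated cultures limit what the p-values cover.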

Other observations

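Smaller groups of genes showed members that moved apart. Of 12 tested complement genes 8 rose and 3 fell, and 5 had reached the filter in e2 alone. C3, the central component, rose from 0.177, 0.126 and 0.0703 to 7.63, 8.41 and 7.60 TPM, while Cd55, which protects cells from complement, fell from 5.28, 5.64 and 6.15 to 0.0784, 0.0931 and 0.0307 TPM. In retinoid metabolism 10 of 18 genes rose and 8 fell, and 4 had reached the filter in e2 alone and 2 in parental cells alone. The enzyme genes that make retinoic acid fell, Aldh1a1 by 2.99, Aldh1a2 by 1.48 and Aldh1a3 by 0.99, and Cyp26b1, which degrades it, rose by 2.85. The cellular binding protein genes Crabp1 and Crabp2 rose by 3.08 and 2.67. Of 11 tested prostaglandin genes 3 rose and 6 fell, with 2 that reached the filter in e2 alone and 2 in parental cells alone. Ptgs2, the inducible cyclooxygenase, fell from 43.9, 48.8 and 44.9 to 21.9, 20.8 and 22.4 TPM, and Ptgs1, the constitutive one, rose from 36.1, 25.6 and 24.6 to 189.9, 184 and 185 TPM. Hpgd, which breaks prostaglandins down, fell by 3.12.

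NF-kB genes divided in the same way, 14 of 26 higher and 8 lower, with 3 that reached the filter in e2 alone. Nfkbia, the feedback inhibitor, rose by 1.46, and Tnfaip3, another feedback gene, fell by 1.70. Lcn2, an iron-binding acute phase protein, rose from 0.0884, 0.0851 and 0.210 to 12.3, 11.9 and 13.3 TPM. Of 26 tested p53 pathway genes 14 rose and 8 fell, with Sesn1, a stress-response gene, higher by 1.98 and Perp, a desmosomal target, lower (-3.40). Of 42 chromatin genes 12 rose, 19 fell and 11 did not pass. The class II deacetylase genes Hdac5 and Hdac9 rose by 2.16 and 1.86, and Kdm5b, a demethylase of histone H3, fell by 1.42.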
